A study of Mus musculus with 3 samples.

Results

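The genes described here are those of the phagocyte NADPH oxidase: Cybb, Cyba, Ncf1, Ncf4, Rac1 and Rac2. They were taken as a named list and not by any measured value, and they make up 6 of the 55536 genes in the gene tables. The list does not hold every subunit of the enzyme. The samples were 3 biological replicates of primary macrophages grown from the bone marrow of C57BL/6J mice. All 3 had received 100 ng/ml Lipid A for 12 h, a washout of 12 h, and Lipid A again at 100 ng/ml for 50 min, so a single restimulated state was measured with no untreated or once-treated library beside it. Total RNA of the cytosolic fraction was sequenced after removal of ribosomal RNA, and sex and age of the animals are not given. The replicates share 1 donor entry at the level of the strain and have separate sample entries, so their spread is that between samples of 1 strain.

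The NADPH oxidase of phagocytes moves electrons from NADPH across a membrane to oxygen and so makes superoxide, which is used against ingested microbes. Its catalytic core, the NOX2 protein encoded by Cybb, sits in the membrane with the Cyba product as a flavocytochrome, and stays inactive until cytosolic subunits and a GTP-bound Rac protein join it. In human patients, loss of the core or of an organizer subunit causes chronic granulomatous disease, in which phagocytes cannot kill certain bacteria and fungi.

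All 6 genes were expressed in every replicate. In mean TPM, the deposited level per transcript length, they spanned 56.4 for Ncf4 to 571 for Cyba, against a median of 4.67, 3.50 and 4.81 TPM over the 13827 tested genes in replicates 1, 2 and 3. Cyba was highest and Ncf4 lowest. Rac2 stood close to Cybb as deposited, at 223 against 253 TPM, but at 123 against 245 TPM when reads were divided by the length of the leading coding transcript. Together the 6 genes held 0.433%, 0.451% and 0.417% of all protein-coding TPM in replicates 1, 2 and 3. As in any bulk sample, fewer cells of a type and less RNA per cell cannot be told apart in these levels.

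The gene tables summed to 47972062, 54409436 and 53491957 expected counts for replicates 1, 2 and 3, and each member had at least 4283 expected counts in every replicate. RNA of the signal recognition particle (7SL) took 55.0%, 64.0% and 56.6% of TPM, which left protein-coding genes with 33.3%, 26.1% and 37.0% of TPM, the least in replicate 2. For that reason levels of different genes are compared in TPM within a library, and replicates of 1 gene in CPM, counts scaled by TMM library size. The cells carried 10 of 10 macrophage markers, led by Lyz2 at 3417 ± 340 TPM and C1qb at 967 ± 161 TPM (SD, n = 3). Of 12 neutrophil markers, which matter here because neutrophils are rich in the same oxidase, 4 were expressed; the summed level of the list was 42, 41.0 and 53.9 TPM in replicates 1, 2 and 3. Csf3r (33.4 ± 8.40 TPM) and S100a9 (5.41 ± 1.07 TPM) led that list, the neutrophil surface marker Ly6g and the granule gene Retnlg were at 0 counts, and a count of 0 allows up to 0.0625, 0.0551 and 0.0561 CPM in replicates 1, 2 and 3 for counting error. The part of neutrophils in the oxidase levels was not tested. Among the other lists, 0 of 6 B cell markers (led by Cd79b at 1.33 ± 0.497 TPM and Ighm at 0.50 ± 0.155 TPM), 1 of 7 T and NK cell markers (Cd4 at 16.6 ± 3.81 TPM, ahead of Lck at 0.130 ± 0.114 TPM), 1 of 6 dendritic cell markers (Ccr7 at 1.12 ± 0.115 TPM, ahead of Itgax at 0.387 ± 0.0115 TPM) and 0 of 6 mast cell and eosinophil markers (led by Kit at 0.263 ± 0.168 TPM and Prss34 at 0.0533 ± 0.0586 TPM) were expressed.

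The membrane pair came first. Cyba, which encodes the small partner that stabilises NOX2 and docks the organizer subunit, had 573, 462 and 679 TPM in replicates 1, 2 and 3 (571 ± 109, SD, n = 3). It ranked 61 among 21951 protein-coding genes by mean TPM. Replicate 2 was the lowest in deposited TPM, but replicate 1 was when TPM was rescaled to protein-coding genes (1721, 1773 and 1837). Cybb, the catalytic subunit, had 276, 193 and 290 TPM (253 ± 52.4) and ranked 145. Replicate 2 was the lowest for Cybb in deposited TPM and also after that rescaling (829, 742 and 785). Cyba exceeded Cybb in every replicate, with TPM ratios of 2.08, 2.39 and 2.34. The difference was 1.18 ± 0.11 on the log2(TPM + 1) scale, and a two-sided exact permutation of its signs gave p = 0.25, the lowest value possible with 3 replicates. In reads the order was the other way, because the Cybb mRNA is far longer: Cybb collected 83190, 88163 and 91329 expected counts, and Cyba 21152, 24601 and 25626. Cybb alone made up 48.2%, 44.2% and 47.7% of the expected counts of the 6 genes.

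Cybb lies on the minus strand of chromosome X (9435252 to 9487771, mm10) and Cyba on the minus strand of chromosome 8 (122424776 to 122432930). Each had 1 dominant mRNA. Cybb-201, 4752 bases with a coding part of 1710 bases, held 92.5%, 98.5% and 99.0% of Cybb TPM in replicates 1, 2 and 3. The lower share in replicate 1 fell to a pair of short retained-intron transcripts, described with the other retained introns. Cyba-201, 744 bases with a coding part of 576 bases, held 95.4%, 96.1% and 95.7% of Cyba TPM. The rest lay almost wholly on the shorter coding transcript Cyba-202, at 4.34%, 3.75% and 4.15%. The whole of Cyba lies inside the annotated span of Gm20388 on the opposite strand, which had 2687, 4566 and 2004 expected counts; the strand setting of the counting is not given, so reads of the pair cannot be told apart by strand.

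The promoters of this pair are shown because the genes encode partners in 1 flavocytochrome yet differ in level and in base composition. Each runs from 250 bases before to 50 bases after the RefSeq transcription start on GRCm38.p6, on the gene's own strand, and capitals mark matches on either strand to GAGGAA (a core bound by PU.1), CCAAT or GGGCGG (a GC box).
Cybb promoter, chrX:9469275-9469574: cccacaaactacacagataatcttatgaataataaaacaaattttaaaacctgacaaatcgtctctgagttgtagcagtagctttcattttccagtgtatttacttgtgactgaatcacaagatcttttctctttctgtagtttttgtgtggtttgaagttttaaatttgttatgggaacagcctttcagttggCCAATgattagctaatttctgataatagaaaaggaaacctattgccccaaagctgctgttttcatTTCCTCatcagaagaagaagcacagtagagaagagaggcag
Cyba promoter, chr8:122432891-122433190: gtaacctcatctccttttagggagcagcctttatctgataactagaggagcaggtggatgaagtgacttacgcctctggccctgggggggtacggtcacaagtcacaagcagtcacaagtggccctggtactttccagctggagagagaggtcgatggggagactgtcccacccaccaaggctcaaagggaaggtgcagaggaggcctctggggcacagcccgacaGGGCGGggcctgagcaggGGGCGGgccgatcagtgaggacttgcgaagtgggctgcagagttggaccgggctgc
The Cybb promoter had a GC content of 35.3% and the Cyba promoter 60.7%, on either side of the median of 52.7% over 32851 promoters. The Cybb window held 1 CCAAT at 56 bases before the start and 1 GAGGAA, read on the opposite strand, at 9 bases past it. The Cyba window held 2 GGGCGG, at 24 and 6 bases before the start, and no matches overlapped. These motifs are common, with GAGGAA in 28.3%, CCAAT in 37.4% and GGGCGG in 35.7% of all promoters, and a match is a match of letters only. TATAAA, the TATA box, occurred in 13.6% of all promoters and in neither of these. The Ncf1 promoter in the same table had a GC content of 54.0% and 1 GGGCGG on the opposite strand, at 42 bases before the start. The annotated starts of Cybb-201 and Ncf1-202 fell on the RefSeq start itself, and that of Cyba-201 lay 10 bases inside the transcript. Of the 6 genes, 3 had a promoter in the table.

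Next came the cytosolic subunits. Ncf1, the organizer that carries the complex to the membrane once it is phosphorylated, had 162, 128 and 175 TPM in replicates 1, 2 and 3 (155 ± 24.0, SD, n = 3) and ranked 320. Ncf4, an adaptor whose PX domain binds phosphatidylinositol 3-phosphate on phagosomes, had 66.4, 42.7 and 60.0 TPM (56.4 ± 12.2) and ranked 917. Ncf4 was the lowest of the 6 genes in every replicate. Ncf1 exceeded it with TPM ratios of 2.44, 3.00 and 2.91, a difference of 1.45 ± 0.16 in log2(TPM + 1) (exact permutation p = 0.25). Cyba exceeded Ncf4 by TPM ratios of 8.63, 10.8 and 11.3, the widest gap among the 15 pairs.

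Ncf1 lies on the minus strand of chromosome 5 (134220053 to 134229625), and Ncf1-202, a coding transcript of 2721 bases, held 92.8%, 95.0% and 96.0% of its TPM. Its end overlaps Gtf2ird2 on the opposite strand by 4303 bases, and that gene had 766, 495 and 253 expected counts. Ncf4 lies on the plus strand of chromosome 15 (78244801 to 78262580), 297 kb from Rac2 on the same chromosome. Its transcripts were more mixed: Ncf4-201, the full coding transcript of 1464 bases, held 65.8%, 72.3% and 84.6% of Ncf4 TPM. Retained-intron models Ncf4-204 (336 bases; 16.2%, 10.5% and 3.33%) and Ncf4-206 (540 bases; 13.4%, 10.7% and 9.33%) held most of the remainder. In replicate 1 the coding share was lowest and both intron shares were highest. By expected counts, which are not divided by length and so weigh long models more, Ncf4-201 held 90.3%, 91.3% and 95.4%.

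Last came the GTPases, which switch the assembled enzyme on; Rac2 is largely confined to blood cells and Rac1 is made in nearly all cells. Rac2 had 234, 237 and 198 TPM in replicates 1, 2 and 3 (223 ± 21.7, SD, n = 3) and ranked 187, and Rac1 had 131, 111 and 139 TPM (127 ± 14.2) and ranked 400. Rac2 exceeded Rac1 in every replicate, with TPM ratios of 1.79, 2.13 and 1.43 and a difference of 0.81 ± 0.29 in log2(TPM + 1) (exact permutation p = 0.25). Replicate 3 was the lowest for Rac2 and the highest for Rac1 in deposited TPM, but this depended on the scale. Rescaled to protein-coding genes it was the lowest for both, with 703, 908 and 535 for Rac2 and 394, 426 and 375 for Rac1. At the lengths of the leading coding transcripts it was the highest for both. Their relative Rac3, known mainly from the nervous system, was at 1.22 ± 0.367 TPM.

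The TPM of both GTPases leaned on short transcript models. Rac2, on the minus strand of chromosome 15 (78559167 to 78572783), has Rac2-201 of 3038 bases, which held 48.3%, 50.4% and 66.0% of its TPM but 97.9%, 98.0% and 98.7% of its expected counts. Rac2-203, a coding fragment of 254 bases with an incomplete reading frame, held 50.9%, 49.1% and 33.5% of TPM on only 1.96%, 1.89% and 1.21% of the counts. The average length that the gene table assigns to Rac2 moved with this share, at 1390, 1451 and 1899 effective bases in replicates 1, 2 and 3. When all Rac2 reads were divided by the length of Rac2-201 instead, an alternative chosen after the data were seen, Rac2 stood at 115, 122 and 132 TPM (123 ± 8.49). Rac1 moved less, to 83.1, 70.1 and 89.0 TPM (80.7 ± 9.70) at the length of Rac1-202, and Rac2 still exceeded Rac1 in 3 of 3 replicates (0.61 ± 0.16 on the log2(TPM + 1) scale).

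Rac1, on the minus strand of chromosome 5 (143503634 to 143528036), divided its reads over 3 models. Rac1-204, a processed transcript of 585 bases with no annotated reading frame, held 50.0%, 51.6% and 48.1% of TPM but 13.7%, 14.3% and 13.6% of expected counts. Rac1-202, of 2325 bases, held 44.6%, 42% and 47.7% of TPM and 70.4%, 66.6% and 74.2% of counts. Rac1-201, the longest at 4159 bases, held 5.41%, 6.44% and 4.18% of TPM and 16.0%, 19.1% and 12.1% of counts. Rac1-202 is the model with the additional exon of the Rac1b splice form, which adds 19 codons beside a switch region of the protein. The sequences are shown around that exon, read on the minus strand from 20 bases of exon before it to 20 bases after it, with the exon in capitals (exon 4 of 7, chr5:143509597-143509653, 57 bases).
Rac1-202: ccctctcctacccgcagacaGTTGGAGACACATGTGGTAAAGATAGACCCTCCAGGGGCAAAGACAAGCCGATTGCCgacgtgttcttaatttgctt
Rac1-201: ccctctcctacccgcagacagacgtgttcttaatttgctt
The share of reads on Rac1-202 does not measure use of that exon. The models also differ at their ends: the last exon of Rac1-202 has 1624 bases and that of Rac1-201 has 3472, and no complete coding model of Rac1 in the annotation pairs the shorter end with a message that lacks the exon. Reads over the exon itself are not given in the tables. Rac1 also overlaps Daglb on the opposite strand by 2309 bases and the unconfirmed model Gm42502 by 1089 bases, with 2207, 2989 and 2266 expected counts for Daglb and 32.0, 16.0 and 3.00 for Gm42502.

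**Figure D1:**
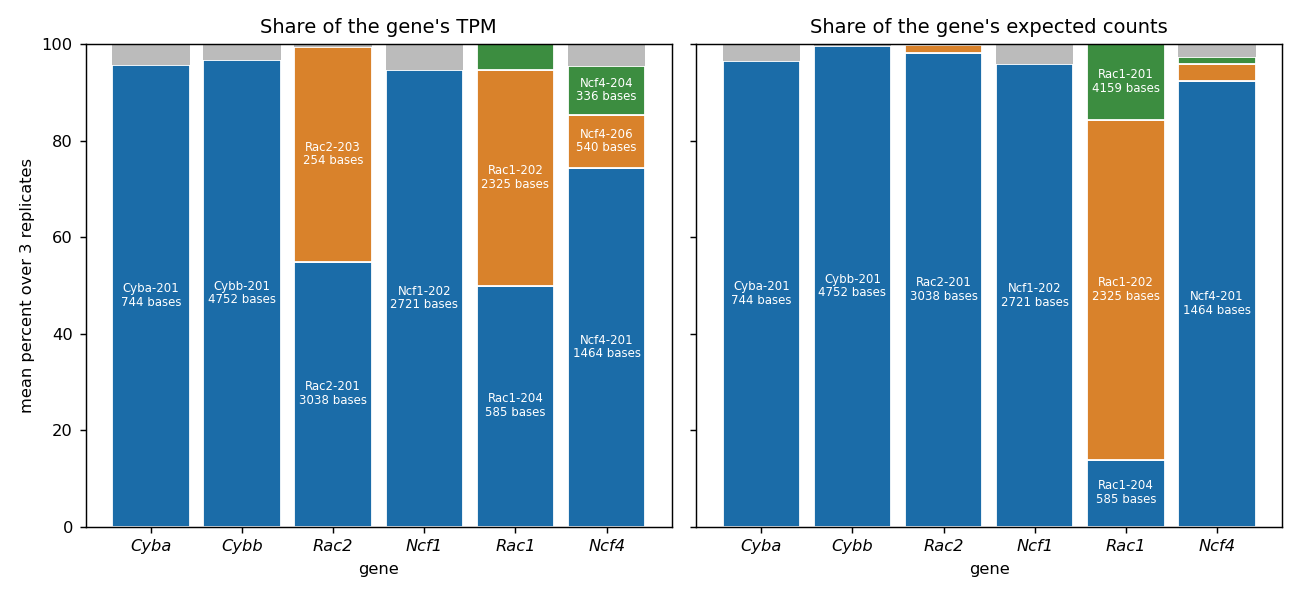
Mean share of each gene's TPM (left) and of its expected counts (right) on each annotated transcript, in percent over 3 replicates. Coloured segments are transcripts with a mean of at least 5% of TPM in either transcript table, and grey is all other transcripts. Name and length in bases are printed on the larger segments only. The short models Rac2-203 (254 bases) and Rac1-204 (585 bases) are large on the left and small on the right, while Cyba, Cybb and Ncf1 look alike in both.

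Set side by side, the deposited TPM gave the order Cyba, Cybb, Rac2, Ncf1, Rac1, Ncf4. Of the 15 pairs, 14 had the same gene higher in 3 of 3 replicates, each with an exact permutation p of 0.25 and an adjusted p of 0.268 over the 15 pairs; with 3 replicates no pair can reach 0.05. Cybb and Rac2 could not be ordered. Their differences were 0.24, −0.29 and 0.55 on the log2(TPM + 1) scale (0.17 ± 0.42, exact p = 0.75), and without replicate 3 the mean turned to −0.027. The neighbours Ncf1 and Rac1 were close but steady, with Ncf1 higher by 0.28 ± 0.066. Rac2 exceeded Ncf1 by 0.53 ± 0.35 as deposited, but at the lengths of the leading coding transcripts Ncf1 was higher in 3 of 3 replicates and the difference turned to −0.30 ± 0.21. On that scale Cybb also exceeded Rac2 in 3 of 3 replicates, by 0.97 ± 0.28, and the order was Cyba (567), Cybb (245), Ncf1 (153), Rac2 (123), Rac1 (80.7) and Ncf4 (45.2 TPM).

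**Figure D2:**
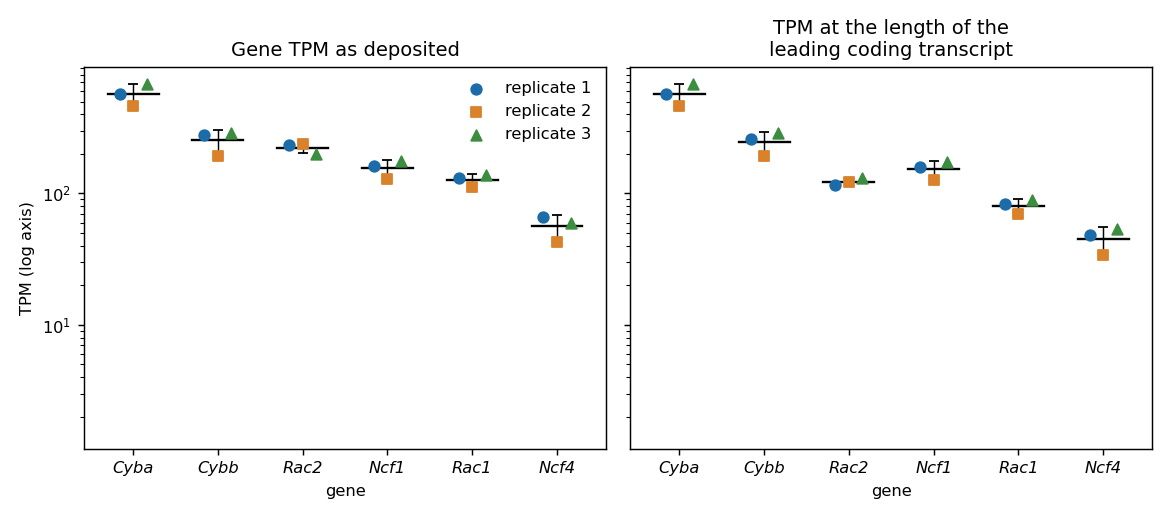
TPM of each gene on a log axis, as deposited (left) and with all reads of the gene divided by the effective length of its leading coding transcript (right); points are the 3 replicates, the long bar is the mean and the error bar 1 SD. Cyba is highest and Ncf4 lowest in both panels, and Rac2 drops below Ncf1 on the right.

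The second transcript table, of the kallisto layout, gave lower TPM for all 6 genes but the same order by mean: Cyba 261 ± 98.0, Cybb 120 ± 59.1, Rac2 113 ± 40.3, Ncf1 63.0 ± 25.2, Rac1 53.8 ± 20.6 and Ncf4 23.9 ± 12.5 TPM. Its replicate 1 stood apart, with Cybb at 188 TPM there and 79.4 and 91.9 TPM in replicates 2 and 3. When TPM of each table was rescaled to the protein-coding genes, Cybb averaged 785 TPM in the gene table and 874 in the second table, and Cyba 1777 and 1962. The tables lay closer together after rescaling than before it. The deposited posterior SD of the count was 0 for Cybb, Cyba, Ncf4 and Rac2, at most 1.05 counts for Ncf1 and 15 to 16.8 counts for Rac1.

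Replicates were compared in CPM. Cybb had 1632, 1630 and 1804 CPM in replicates 1, 2 and 3, and Cyba 415, 455 and 506 CPM. Ncf1 had 554, 598 and 603 CPM and Ncf4 84.0, 79.5 and 92.8 CPM. These 4 genes were highest in replicate 3. Rac1 had 244, 278 and 260 CPM and Rac2 455, 647 and 517 CPM, and both were highest in replicate 2. The ratio of the highest to the lowest replicate was 1.09 for Ncf1, 1.11 for Cybb, 1.14 for Rac1, 1.17 for Ncf4, 1.22 for Cyba and 1.42 for Rac2.

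All 6 genes differed between replicates beyond counting error in a Poisson heterogeneity test with Benjamini-Hochberg adjustment over all genes tested, where 70.4% of the 13827 tested genes were called, and 87.7% of those averaging 1000 or more counts, as all 6 do. A call is therefore the usual outcome at this depth. By TMM, 0, 2 and 4 of the 6 were called and highest in replicates 1, 2 and 3, where 20.1%, 21.4% and 28.9% of tested genes were. The adjusted p of that test was 3.71e-12 for Ncf4, 4.67e-25 for Rac1, 5.03e-28 for Ncf1, 9.74e-100 for Cyba and 1.44e-130 for Cybb, and for Rac2 it was below the smallest number the computation holds. The sizes are modest: the median ratio of highest to lowest CPM was 1.15 over the 6 genes and 1.18 over tested genes averaging 1000 or more counts. Without replicate 1 Ncf1 no longer passed (adjusted p = 0.394), and without replicate 3 Cybb no longer passed (adjusted p = 0.798). The biological coefficient of variation from the edgeR fit was 0.114 for Ncf4, 0.131 for Rac1, 0.137 for Ncf1, 0.144 for Cyba, 0.148 for Cybb and 0.172 for Rac2, against a median of 0.164 over all tested genes and 0.124 over those averaging 1000 or more counts. These values are drawn toward those of other genes; the gene-wise DESeq2 fit gave 0.0333 for Ncf1, 0.0508 for Cybb, 0.0557 for Rac1, 0.0719 for Ncf4, 0.0874 for Cyba and 0.175 for Rac2, so that Rac2 was the most variable of the 6 in both fits and the least variable was Ncf4 in the first and Ncf1 in the second.

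Among 7 scalings compared, which replicate was highest depended on the scaling for all but Cyba and Rac2. TMM moved replicate 3 against replicate 1 by 0.17 on the log2 scale for every gene, relative to scaling by total expected counts. With totals, Cybb had 1734, 1620 and 1707 CPM, Ncf1 588, 595 and 571 CPM and Ncf4 89.3, 79.1 and 87.8 CPM, so that none of these 3 was highest in replicate 3. Cyba stayed highest in replicate 3 (441, 452 and 479 CPM) and Rac2 in replicate 2 (483, 643 and 489 CPM) under all 7 scalings. The length of the leading coding transcript is not among the 7. At that length Rac2 was highest in replicate 3, with 115, 122 and 132 TPM in replicates 1, 2 and 3. Rac1 was highest in replicate 2 under 5 of the 7, and in replicate 3 in deposited TPM and in counts of the second transcript table. Rac2 is also the gene whose ratio of highest to lowest was largest of the 6 with TMM (1.42), DESeq2 size factors (1.41), totals (1.33) and the counts of the second table (1.53). In deposited TPM it was the smallest of the 6, at 1.2 against 1.25 to 1.55 for the others.

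**Figure D3:**
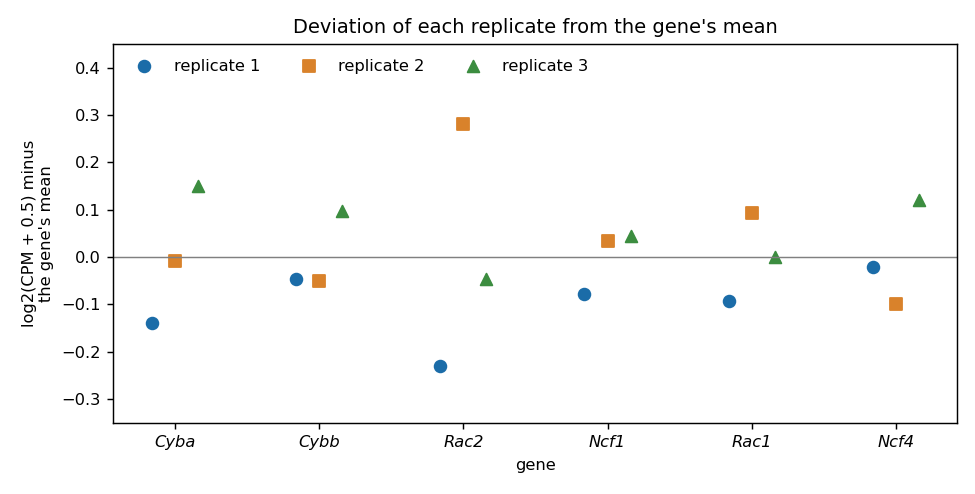
Deviation of each replicate from the gene's mean, in log2(CPM + 0.5) with TMM scaling; points are replicates. Rac2 spreads widest, from −0.23 in replicate 1 to 0.28 in replicate 2, and Cybb and Ncf1 spread least.

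The share of reads on retained-intron transcripts differed between replicates in the same way in all 3 oxidase genes that have such models. Of Ncf4 expected counts, 7.83%, 6.45% and 3.53% in replicates 1, 2 and 3 lay on its 4 retained-intron models. For Cybb the share was 0.967%, 0.20% and 0.121%, and for Ncf1 0.508%, 0.308% and 0.159%. In each gene replicate 1 was highest and replicate 3 lowest. The share over all protein-coding genes followed the same order at 2.51%, 1.71% and 1.51%. By counts Ncf4 was thus above that share and Cybb and Ncf1 below it in every replicate. By TPM, which weights short models more, Ncf4 was again above it. Cybb was at 7.39% against 4.21% for all coding genes in replicate 1, and in the second transcript table at 16.1% against 5.31%. In replicates 2 and 3 Cybb was below the share for all coding genes in both tables. Ncf1 was above that share in the second table in replicates 1 and 2 (7.61% against 5.31%, and 4.50% against 3.62%). The genes Cyba, Rac1 and Rac2 have no retained-intron model in the annotation. The nuclear RNA Malat1 was at 5966, 3089 and 1426 CPM and Neat1, another nuclear RNA, at 636, 248 and 128 CPM in replicates 1, 2 and 3. The part of nuclear RNA in these shares was not tested.

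**Figure D4:**
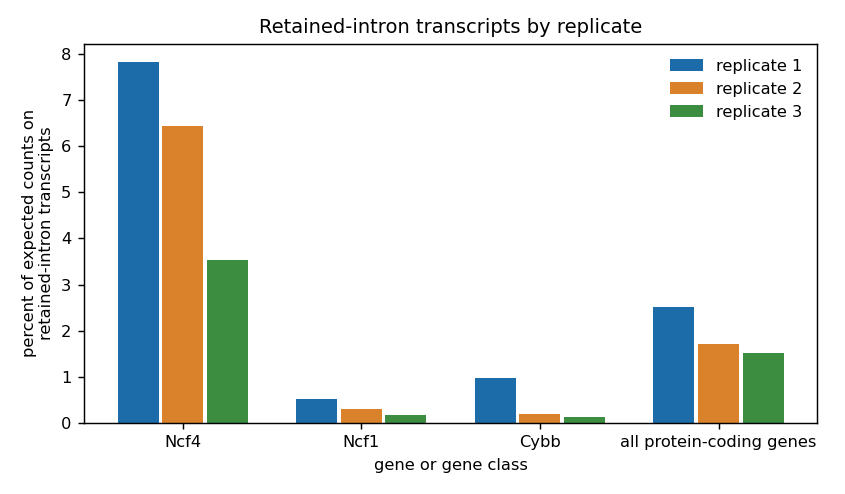
Percent of expected counts on retained-intron transcripts in replicates 1, 2 and 3, for Ncf4, Ncf1, Cybb and all protein-coding genes. Ncf4 stands above the value for all coding genes in each replicate, and in all 4 sets the bar of replicate 1 is the highest and that of replicate 3 the lowest.

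The genes most like Cybb over the 3 replicates, by the root mean square difference of their log2(CPM + 0.5) deviations among coding genes of at least 10 TPM, were Gab2 (0.0017), Tmem104 (0.0024) and Traf7 (0.0028). Their mean levels were 14.5, 45 and 12.4 TPM. With 3 samples the measure separates little: 690 of 4287 ranked genes lay within 0.05 of Cybb. Ncf4 was the nearest of the other 5 members at 0.036 (rank 369) and Rac2 the farthest at 0.23 (rank 3831).

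Around the 6 genes, 82 of 83 names on 10 lists of related genes were matched, the remaining one being an older name of Cybc1. Of the 82, 65 were expressed, meaning 1 TPM or more in all 3 replicates. The heterogeneity test called 66 of the 73 that were tested (90.4%), against 70.4% of all tested genes and 87.7% of those averaging 1000 or more counts. With TMM scaling 10 of them were highest in replicate 1, 26 in replicate 2 and 30 in replicate 3, where 20.1%, 21.4% and 28.9% of all tested genes were called and highest; the split depends on that scaling. The median TPM over all matched genes of a list was taken in each replicate and averaged over the 3 replicates. It was 140 for Rac and Rap relatives, 108 for superoxide and peroxide removal, 45.7 for transcription factors and 39.8 for negative regulators. For charge and substrate supply it was 37.7, for kinases 28.9, for exchange factors 10.9 and for lipid signals 8.13. The list of partner and maturation genes had 0.183 and the catalytic homologs 0. That partner list was mixed, with 3 of its 7 matched genes expressed.

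All 5 catalytic homologs of Cybb were under 1 TPM. Nox1 was at 0.0700 ± 0.0624 TPM (SD, n = 3), Nox4 and Duox1 each at 0.00333 ± 0.00577 TPM, and Nox3 and Duox2 had no counts. Partners of those enzymes were as low: the organizer Noxo1 had 0.183 ± 0.0929 TPM, the activator Noxa1 0.00333 ± 0.00577 TPM, and the maturation factors Duoxa1 and Duoxa2 were at 0. The same list holds Cybc1, the chaperone needed to make the flavocytochrome, at 22.8, 23.3 and 35.3 TPM in replicates 1, 2 and 3. Hmox1, a heme-degrading enzyme, was the highest of the list at 116 ± 4.07 TPM, and Poldip2, known as a partner of Nox4, was at 7.84 ± 0.569 TPM. The heterogeneity test called the 1 catalytic homolog that could be tested, Nox1, and 4 of 4 tested genes among the partners, against 70.4% of all tested genes.

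The Rac cycle was well represented. Among relatives of the Rac proteins, 5 of 6 were expressed, led by Cdc42 (247 ± 30.9 TPM), the integrin regulator Rap1b (194 ± 27.6 TPM) and Rhog (165 ± 26.2 TPM), with Rac3 lowest. Of 11 Rac exchange factors, which load Rac with GTP, 9 were expressed; Vav1 (74.1 ± 8.84 TPM), Prex1 (46.5 ± 7.92 TPM) and Dock2 (44.2 ± 6.96 TPM), all active in leukocytes, led, and Tiam2 (0.0600 ± 0.0265 TPM) was lowest. Of 8 negative regulators 7 were expressed. The inhibitors Arhgdib (248 ± 23.1 TPM) and Arhgdia (229 ± 34.6 TPM), which hold Rac in the cytosol, led. Rac2 was at 223 ± 21.7 TPM as deposited and at 123 ± 8.49 TPM at the length of its leading coding transcript. Nrros (99.3 ± 21.3 TPM), which lowers NOX2 protein in mouse phagocytes, came next among the regulators, and Bcr (0.380 ± 0.125 TPM) was lowest. The heterogeneity test called 6 of 6 relatives, 10 of 11 exchange factors and 6 of 8 negative regulators, against 70.4% of all tested genes and 87.7% of those averaging 1000 or more counts.

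Among 12 listed kinases that act on the cytosolic subunits or in the signals leading to them, 10 were expressed and 10 called. Of all tested genes 70.4% were called, and 87.7% of those averaging 1000 or more counts. Syk, which relays Fc receptor signals, led at 90.6 ± 15.9 TPM, followed by Prkcd (76.1 ± 22.2 TPM), a protein kinase C that phosphorylates the organizer, and Prkcb (42 ± 7.28 TPM). The isoform Prkcz was lowest at 0.110 ± 0.010 TPM. All 7 genes of the lipid signals that guide assembly were expressed and 6 were called, against the same 70.4% and 87.7%. Inpp5d, a lipid phosphatase, led at 44.7 ± 4.71 TPM, then Pik3cd (26.2 ± 5.52 TPM) and Pla2g4a (8.61 ± 1.96 TPM), and Pik3c3, which makes the lipid that the Ncf4 product binds, was lowest at 6.28 ± 1.05 TPM.

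Enzymes and channels that supply NADPH or balance charge were expressed and called in 5 of 5 cases. Of all tested genes 70.4% were called, and 87.7% of those averaging 1000 or more counts. Pgd (61.1 ± 9.91 TPM) and G6pdx (47.0 ± 13.2 TPM) of the pentose phosphate pathway led. Next was the proton channel Hvcn1 (37.7 ± 9.40 TPM), and the chloride exchanger Clcn3 (5.87 ± 1.13 TPM) was lowest. On the removal side 11 of 12 genes were expressed and 10 of 11 tested ones were called, against the same 70.4% and 87.7%. Prdx1 (381 ± 99.2 TPM), Gpx1 (297 ± 48.4 TPM) and Prdx5 (290 ± 44.3 TPM), peroxide-reducing enzymes, had higher mean TPM than Cybb, Prdx5 in 2 of 3 replicates and the other two in all 3, and the extracellular dismutase Sod3 was listed at 0 TPM. Of 9 transcription factors known to act on phagocyte oxidase genes 8 were expressed, among them Irf1 (257 ± 105 TPM) and Spi1 (104 ± 17.9 TPM), which encodes PU.1. Cebpe, a factor of late granulocytes, was lowest at 0.0633 ± 0.0351 TPM. All 8 tested factors were called, against 70.4% of all tested genes and 87.7% of those averaging 1000 or more counts. With TMM scaling, which raises replicate 3 relative to totals, 6 of them were highest in replicate 3, against 28.9% of tested genes. For Irf1 the values were 632, 560 and 968 CPM in replicates 1, 2 and 3.

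**Figure D5:**
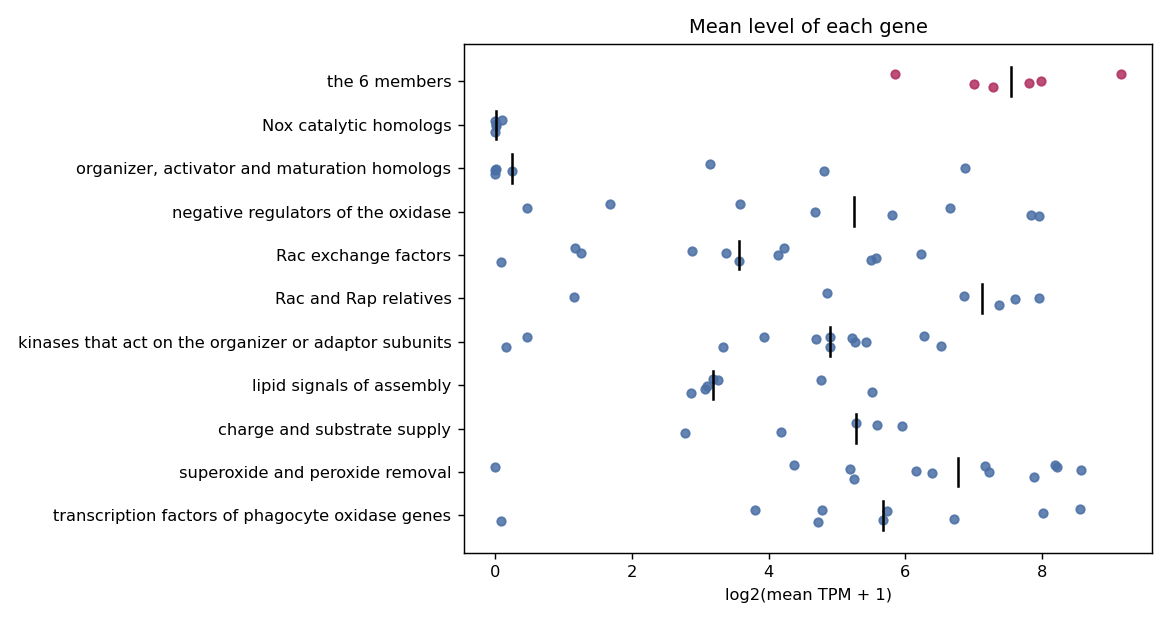
Mean TPM over 3 replicates as log2(mean TPM + 1) for the 6 oxidase genes (red) and the genes of 10 related lists (blue); each point is a gene and each vertical bar the median of its list. The catalytic homologs of Cybb all lie near 0, while the 6 genes lie between Ncf4 at 56.4 TPM and Cyba at 571 TPM.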

How the data were processed

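RNA of 3 macrophage samples of 1 group was measured, with 1 gene table and 2 transcript tables deposited per sample. The expected counts were deposited by the authors as estimates of reads, without normalisation; for count tests each was rounded to the nearest integer. The TPM values were deposited by the authors per transcript length over every indexed feature, short RNAs included. The posterior SD of each count, a score, was deposited in the gene table. Notes deposited beside the tables name mm10 and GENCODE M21. The layouts are those of RSEM and kallisto; which quantifier, aligner and strandedness were used is not given in the sources used here. Entries that name no gene (0.0785%, 0.0521% and 0.0251% of expected counts in replicates 1, 2 and 3) stayed out of library sizes and tests.

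Depth was 47972062 to 54409436 expected counts; floors (3 counts of the total) cover counting error only. Variation between replicates was tested with a chi-square for Poisson heterogeneity, on 2 degrees of freedom, against TMM library sizes from edgeR 4.0.16. Genes averaging 10 or more counts entered, and p-values were adjusted by Benjamini-Hochberg at 0.05. An edgeR fit with only an intercept gave the biological coefficients of variation. Pairs of genes were subtracted within each library as log2(TPM + 1) and tested by an exact sign-flip permutation. Expressed means 1 TPM or more in all 3 replicates. The steps were tested on simulated data. Promoters are from RefSeq (GRCm38.p6). DESeq2 1.42.0 served as an alternative, beside other library scalings, count filters, pseudocounts, tables and leaving out each replicate.

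The 6 genes, the gene and marker lists and the tests were chosen with earlier results of these data known. The text names the 6 genes, their transcripts with a mean of at least 5% of the gene's TPM in either table, the 3 highest and the lowest gene of each related list with all catalytic homologs, the 3 genes most like Cybb, and from each marker list the 2 highest; Cybc1, Cyba-202, Noxa1, Noxo1, Duoxa1, Duoxa2, Ly6g, Retnlg, Malat1, Neat1 and the overlapping genes were named after their values were seen. 1 gene that this rule picks is not reported here. Labels give separate samples but not separate animals. The heterogeneity p-values measure departure from counting error between these samples and do not give the size of the spread. The permutation p-values come from flipping the signs of the differences over these samples and comparing the absolute mean difference.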

Additional observations from a re-analysis of the deposited data

How the results depend on the processing

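No paired analysis was possible because the series holds 1 group only. All 6 genes differed between replicates beyond counting error under each other library scaling, count filter and count table tried; the share of all tested genes called there was 45.5% to 79.3%. Leaving out 1 replicate gave 5 to 6 of the 6, with 53.5%, 53.1% and 50.7% of all tested genes called without replicates 1, 2 and 3. Mean TPM depended on what it was taken over. Rescaled to protein-coding genes it was 785 for Cybb, 1777 for Cyba, 484 for Ncf1, 175 for Ncf4, 398 for Rac1 and 715 for Rac2. In the kallisto-layout table it was 120, 261, 63.0, 23.9, 53.8 and 113 in the same order, and 874, 1962, 471, 173, 405 and 862 when that table was rescaled likewise, an alternative chosen after seeing the data. The length of the leading coding transcript, also chosen after seeing the data, gave 80.7 for Rac1, 123 for Rac2 and 45.2 for Ncf4.

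Leaving out 1 replicate at a time, mean TPM ranged 235 to 283 for Cybb, 518 to 626 for Cyba, 145 to 168 for Ncf1, 51.4 to 63.2 for Ncf4, 121 to 135 for Rac1 and 216 to 235 for Rac2.

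The DESeq2 gene-wise fit, which does not share spread between genes, gave coefficients of variation of 0.0508 for Cybb, 0.0333 for Ncf1 and 0.0557 for Rac1. Leaving out 1 replicate gave edgeR coefficients of 0.138 to 0.183 for Cybb, 0.132 to 0.172 for Cyba, 0.133 to 0.172 for Ncf1, 0.112 to 0.138 for Ncf4, 0.13 to 0.161 for Rac1 and 0.162 to 0.182 for Rac2. The kallisto-layout table gave mean shares of TPM of 92.7% for Cybb-201, 90.7% for Ncf1-202, 52.1% for Rac1-204 and 42.1% for Rac2-201. By expected counts the shares were 96.5% for Cyba-201, 92.3% for Ncf4-201, 13.9% for Rac1-204 and 98.2% for Rac2-201. Leaving out 1 replicate gave shares of TPM of 95.5% to 98.7% for Cybb-201, 95.5% to 95.9% for Cyba-201, 93.9% to 95.5% for Ncf1-202, 69.1% to 78.5% for Ncf4-201, 49.1% to 50.8% for Rac1-204 and 49.4% to 58.2% for Rac2-201.

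Of the pair differences, Cybb minus Rac2 turned to −0.027 without replicate 3 and Rac2 minus Ncf1 turned to −0.30 at the length of the leading coding transcript; the second follows from dropping the short Rac2-203 from the length, and the cause of the first was not tested. With 1 replicate left out the differences ranged 1.14 to 1.24 for Cyba minus Cybb, 1.13 to 1.53 for Cyba minus Rac2, 1.83 to 1.9 for Cyba minus Ncf1, 2.08 to 2.2 for Cyba minus Rac1, 3.25 to 3.44 for Cyba minus Ncf4, −0.027 to 0.39 for Cybb minus Rac2, 0.66 to 0.75 for Cybb minus Ncf1, 0.93 to 1.06 for Cybb minus Rac1, 2.1 to 2.2 for Cybb minus Ncf4, 0.35 to 0.7 for Rac2 minus Ncf1, 0.67 to 0.96 for Rac2 minus Rac1, 1.75 to 2.12 for Rac2 minus Ncf4, 0.25 to 0.32 for Ncf1 minus Rac1, 1.4 to 1.55 for Ncf1 minus Ncf4 and 1.08 to 1.28 for Rac1 minus Ncf4. The other 13 pairs kept their direction under every alternative tried. Depth does not limit the 6 levels, each of which rests on at least 4283 expected counts per replicate. The assignment of reads to short models moves the levels of Rac1 and Rac2, and less so that of Ncf4, from 56.4 to 45.2 TPM.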
